A study of Mus musculus with 2 samples.

Results

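The 10 genes described here handle iron and heme: Hmox1, Slc48a1, Tfrc, Steap3, Slc11a2, Slc11a1, Fth1, Ftl1, Slc40a1 and Ireb2. They were chosen by name for their known roles, out of 20653 genes that the array probes could be assigned to, and every probe of each gene was used, 16 probes in all. Their RNA was measured in monocytic myeloid-derived suppressor cells (M-MDSCs), immature myeloid cells that dampen T cell responses, taken from tumours of mice fed a normal-salt diet (NSD) or a high-salt diet (HSD). Female mice of strain BABL/c (as spelled in the labels, the BALB/c strain) aged 6 to 8 weeks were injected under the skin with 1000000 4T1 cells, a mouse mammary carcinoma line, and were kept for 16 days on their diet. The NSD was chow with 0.4% NaCl and tap water, and the HSD was chow with 4% NaCl and drinking water with 1% NaCl. Cells of 5 NSD mice and of 6 HSD mice were isolated with magnetic beads after lysis of red blood cells, pooled in equal numbers within a diet, and hybridised to 1 single-colour array per diet.

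Myeloid cells take up iron bound to transferrin, and macrophages also gain iron from heme when they digest red blood cells. Inside the cell, iron is kept in a small usable pool, stored in ferritin, or released through ferroportin. The iron regulatory proteins bind RNA elements in ferritin and transferrin receptor transcripts and so change their translation or stability, while the transcription factors NRF2 and BACH1 act on heme oxygenase and ferritin genes. These layers are background. The arrays measured RNA and neither iron nor protein.

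The main readout of each probe was the processed signal of the scanner software, a brightness in intensity units. Signals were taken to the log2 scale and the array's own 75th percentile, 252 units in NSD and 233 in HSD, was subtracted. Differences are HSD minus NSD on this scaled log2 scale, so a fold differs slightly from the plain ratio of the signals beside it. With 1 array per diet there is no spread between mice, no test was possible, and every fold describes these pooled RNAs. A probe was counted as higher or lower at a difference of at least 1.5-fold. By the software's own call, both signals of all 16 probes were well above background, and 15 of them were printed in 1 spot per array.

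The paper defines M-MDSCs as cells positive for CD11b and Ly-6C. Itgam, which encodes CD11b, had signals of 31564 units in NSD and 31043 in HSD, and the Ly-6C gene Ly6c1 had 51811 and 48478. Ly6c2 and the neutrophil marker Ly6g had no matched probe, so monocytic and granulocytic cells were not told apart by these values. Transcripts of neutrophil markers, mainly of granule and calcium-binding proteins, were bright as well, with 269538 and 255388 units summed over 9 markers. Of these, 1 (Mpo) was at least 1.5-fold lower in HSD and none higher. Among all genes, 9.85% were at least 1.5-fold higher in HSD and 10.3% lower. Of 7 monocyte markers, 2 (Cd14 and Cx3cr1) were at least 1.5-fold higher in HSD and 1 lower (Ccr2, 259 units in NSD and 139 in HSD). Of 11 macrophage markers with a probe, 7 were at least 1.5-fold lower in HSD and 0 higher. C1qa was not well above background in HSD, and 2 of the 11 lay above 0 (C1qb, 1.26-fold higher, and Vcam1). The summed signal of all 11, before scaling, was 19572 units in NSD and 12738 in HSD. Its brightest parts were Csf1r (11343 and 8112 units) and Adgre1 (6723 and 4252), both lower by under 1.5-fold. Of 7 erythroid markers above background, 1 was at least 1.5-fold lower and 0 higher, with 34848 and 30610 units for the hemoglobin gene Hba-a2, and the defining markers Epb42 and Rhag were not well above background on either array. Of 6 markers of 4T1 carcinoma cells, 3 (Epcam, Krt8 and Krt18) were at least 1.5-fold higher, with the highest of their HSD signals 24.996 units. Krt8, at 8.68 and 12.2 units, lay where 14.4% of pairs of spots of the same probe on the same array differed by 1.5-fold or more. Cdh1, measured in 10 spots per array, went the other way, with 45.0 and 30.8 units and a difference of −0.43. Krt14 and Cldn4 had differences of 0.069 and 0.18. The summed signal over the list was 114 units in NSD and 120 in HSD. Of 4 fibroblast markers above background 2 were lower, and of 5 B cell markers none reached 1.5-fold and all 5 were above 0. Dendritic cell markers above background numbered 5, of which 1 (Clec9a) was at least 1.5-fold higher, with Siglech at 13705 and 13214 units. Among 7 T and NK cell markers above background, 1 (Cd3e) was at least 1.5-fold lower and 0 higher. None of 4 endothelial markers above background reached 1.5-fold. The part of any of these cells in the differences below was not tested. In bulk RNA, fewer cells of a type and less RNA per cell cannot be told apart.

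Of the 16 probes, 1 was at least 1.5-fold higher in HSD (6.25%, against 10.2% of all 29628 probes that were detected above background on 1 or both arrays) and 3 were at least 1.5-fold lower (18.8%, against 8.91% of all probes). The higher probe was that of Ireb2, and the lower ones were single probes of Slc11a2, Tfrc and Ftl1. Counted by the brightest probe of each gene, 1 gene was higher and 1 was lower, 10% in each direction, beside 9.85% and 10.3% of 16332 genes. These gene shares lie at the background, and no test of the probe shares was possible. The median difference was 0.13 over the 10 genes and 0.045 over all genes. The median size of the difference, whichever its direction, was 0.21 over the 10 genes and 0.27 over all genes detected on both arrays. The brightest probes of the 10 genes had NSD signals of 143 units or more, while all genes include dimmer ones. Of pairs of spots of the same probe on an array, 14.4% differed by 1.5-fold or more at signals up to 16.6 units and 0.571% from 915 units up. Neither the sizes nor the shares were matched for signal.

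**Figure D1:**
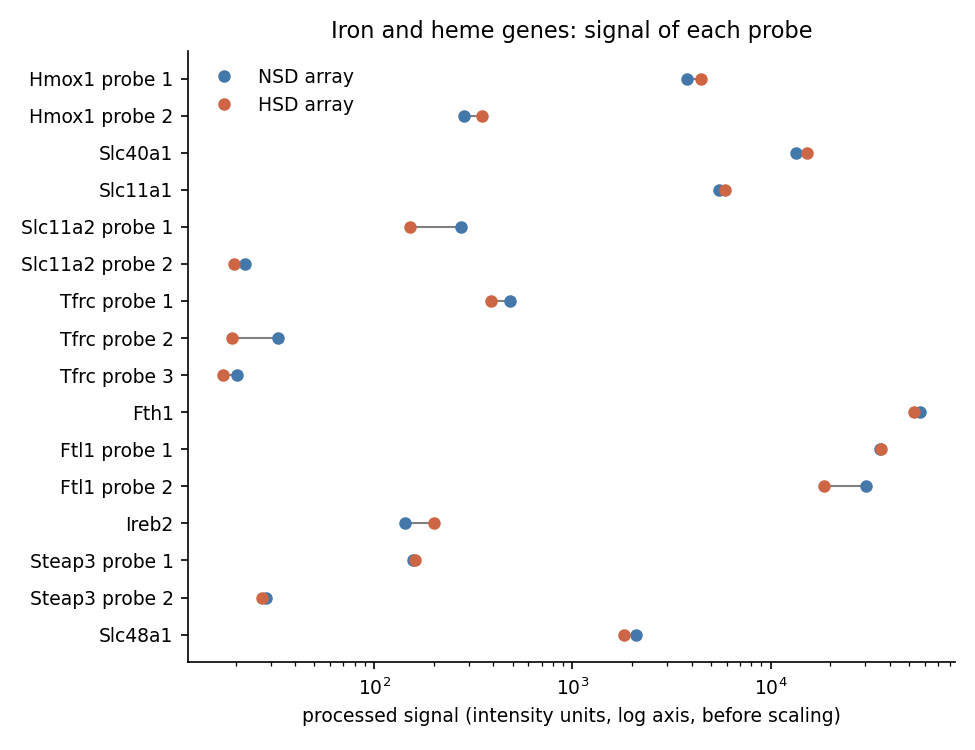
Processed signal of each of the 16 probes on the NSD array (blue) and the HSD array (orange), in intensity units on a log axis and before scaling, with 1 value per array. The points of a probe lie close together for most probes, with the widest gaps for the brighter Slc11a2 probe (275 and 152 units) and the second Tfrc probe (32.6 and 19.3 units).

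**Figure D2:**
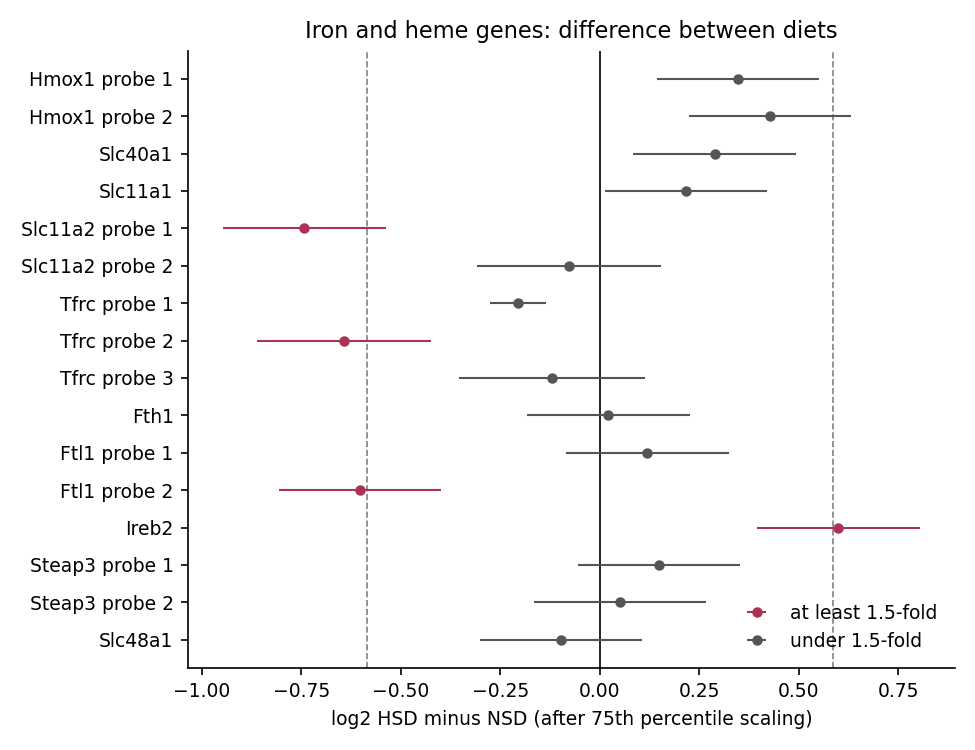
Difference of each probe, HSD minus NSD, on the scaled log2 scale. Bars are the technical error that the scanner software gives for both signals and hold no spread between mice, dashed lines mark 1.5-fold, and the 4 red points lie past it.

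Hmox1 and Slc48a1 act on heme itself. Hmox1 encodes heme oxygenase 1, which opens the heme ring and frees its iron, with biliverdin and carbon monoxide as the other products. Its brighter probe had a signal of 3807 units in NSD and 4473 in HSD, a difference of 0.35 ± 0.20 (log2, technical error of the scanner software, 1 spot per array), or 1.27-fold higher in HSD. The other Hmox1 probe had 283 and 351 units, a difference of 0.43, or 1.34-fold higher. Both probes thus leaned the same way and neither reached 1.5-fold. Under the other ways of correcting and scaling the signals that were tried, the brighter probe lay between 0.25 and 0.38 and the other between 0.33 and 0.45. Slc48a1 encodes HRG1, a carrier that brings heme out of the phagolysosome into the cytosol. Its probe had 2099 units in NSD and 1813 in HSD, a difference of −0.098, which is smaller than its technical error.

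The genes of transferrin-bound iron uptake were those of the receptor and of the steps in the endosome. Tfrc encodes transferrin receptor 1, which carries iron-loaded transferrin into the cell. Its brightest probe was the only member probe printed in 10 spots per array, and 9 NSD spots and 8 HSD spots were free of the software's outlier calls. On the NSD array the spots ran from 452 to 507 units with a median of 486, and on the HSD array from 369 to 410 with a median of 390. The spots of the arrays did not overlap, and they did not overlap after scaling either, with a lowest NSD spot of 0.84 and a highest HSD spot of 0.81 on the scaled log2 scale. The spots are technical repeats on 1 array each, so this describes the precision of the measurement and not the diets. It leaves out 1 NSD and 2 HSD outlier spots, and with outlier spots kept the difference of the probe was −0.27. At such signals the spots of a probe had a median standard deviation of 0.061 on the log2 scale, so a small difference can separate them. How many other probes separated in this way was not examined here. The difference of the probe was −0.20 ± 0.070, or 1.15-fold lower in HSD, and between −0.27 and −0.15 under the other settings.

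**Figure D3:**
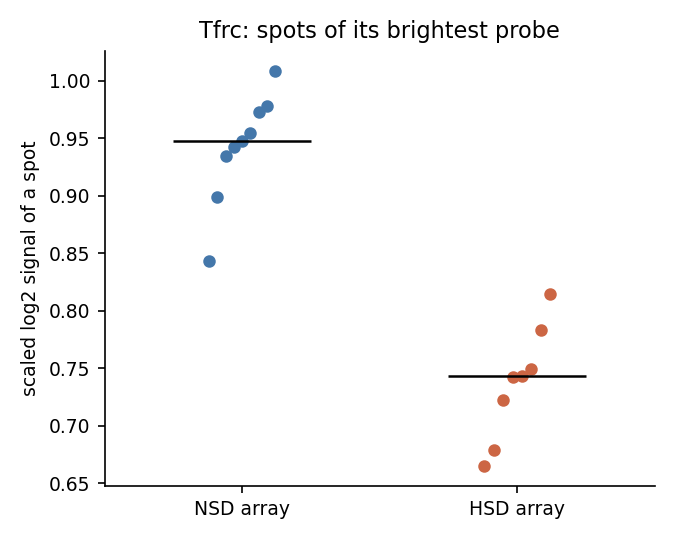
Scaled log2 signal of each spot of the brightest Tfrc probe, 9 NSD spots and 8 HSD spots, with a line at the median of each array. The HSD spots lie between 0.66 and 0.81 and the NSD spots between 0.84 and 1.01, and the spots of an array are technical repeats of 1 pooled RNA.

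The 2 other Tfrc probes were dim. The first of them had 32.6 units in NSD and 19.3 in HSD, a difference of −0.64 or 1.56-fold lower, which became −0.19 when the background was corrected by normexp, a model that treats part of a dim signal as background. The last had 20.3 and 17.3 units, a difference of −0.12, and 0.0083 with normexp. All 3 probes were lower in HSD as processed here, and the only one past 1.5-fold lay in a range of signal (16.6 to 49.1 units) where 2.76% of pairs of spots of the same probe on the same array differed by 1.5-fold or more.

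Steap3 encodes the ferrireductase of the endosome that reduces iron after it leaves transferrin. Its brighter probe had 157 units in NSD and 161 in HSD, a difference of 0.15, and the other had 28.5 and 27.3 units, a difference of 0.051. Both differences were within the technical error.

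Slc11a2 and Slc11a1 encode related metal transporters, DMT1 and NRAMP1. DMT1 moves reduced iron out of the endosome after transferrin uptake, and NRAMP1 pumps metal ions out of the phagosome of macrophages and neutrophils. The brighter Slc11a2 probe had a signal of 274.9 units in NSD and 151.8 in HSD, a difference of −0.74 ± 0.20, or 1.67-fold lower in HSD. At its signal, 0.471% of pairs of spots of the same probe differed by 1.5-fold or more within an array. That share holds no difference between arrays, and between them 8.91% of all probes were at least 1.5-fold lower in HSD. The dimmer Slc11a2 probe had 22.4 and 19.6 units, a difference of −0.077 that turned to 0.017 with normexp. The Slc11a2 probes thus differed in the size of the change, and the median over them was −0.41, under 1.5-fold. Under every other setting tried the brighter probe stayed past 1.5-fold, between −0.78 and −0.62. Slc11a1 had 1 probe with 5505 units in NSD and 5911 in HSD, a difference of 0.22, between 0.11 and 0.24 under the other settings. A test of the difference between these transporters could not be made with 1 array per diet.

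The genes of iron storage were those of ferritin, whose products form the shell that holds iron as a mineral. The heavy chain, from Fth1, oxidises the incoming iron, and the light chain, from Ftl1, aids in forming the mineral core. Fth1 had 56681 units in NSD and 53159 in HSD, a difference of 0.022 that changed sign under 4 of 10 other settings, with a range of −0.13 to 0.028. The brighter Ftl1 probe had 35761 and 35901 units, a difference of 0.12, and −0.024 under cyclic loess scaling. The other Ftl1 probe had 30442 units in NSD and 18530 in HSD, a difference of −0.60, or 1.52-fold lower in HSD. These probes of the same gene therefore did not move together: the second was past 1.5-fold under all 9 settings that could be applied to a single probe, between −0.74 and −0.60, and the first was under it in each. The median over both was −0.24, the opposite sign of the brighter probe. Both probes are assigned to the same RefSeq transcript, and what set them apart was not tested.

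Iron leaves the cell through ferroportin, encoded by Slc40a1, the known exporter of iron in animal cells. Its probe had 13472 units in NSD and 15202 in HSD, a difference of 0.29 ± 0.20 or 1.22-fold higher in HSD. It was between 0.16 and 0.30 under the other settings and never reached 1.5-fold. Iron-recycling macrophages are known for their use of Slc40a1, Hmox1 and Slc48a1, whose differences were 0.29, 0.35 and −0.098, while 7 of 11 macrophage markers were at least 1.5-fold lower on the same arrays. The part of macrophages in the values of these genes was not tested.

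Ireb2 encodes iron regulatory protein 2, which binds iron-responsive elements when iron is scarce and is degraded when iron is plentiful. Its probe had 143 units in NSD and 200 in HSD, a difference of 0.60 ± 0.20, or 1.52-fold higher in HSD. The value sat at the threshold, since it was 0.46 with normexp, 0.56 with the 75th percentile taken over probes detected on both arrays and 0.57 with cyclic loess, all under 1.5-fold, and up to 0.62 elsewhere. At its signal, 0.391% of pairs of spots of the same probe differed by 1.5-fold or more within an array. That share holds no difference between arrays, and between them 10.2% of all probes were at least 1.5-fold higher in HSD. Aco1, which encodes the related iron regulatory protein 1, had 33.3 units in NSD and 28.4 in HSD, a difference of −0.12.

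**Figure D4:**
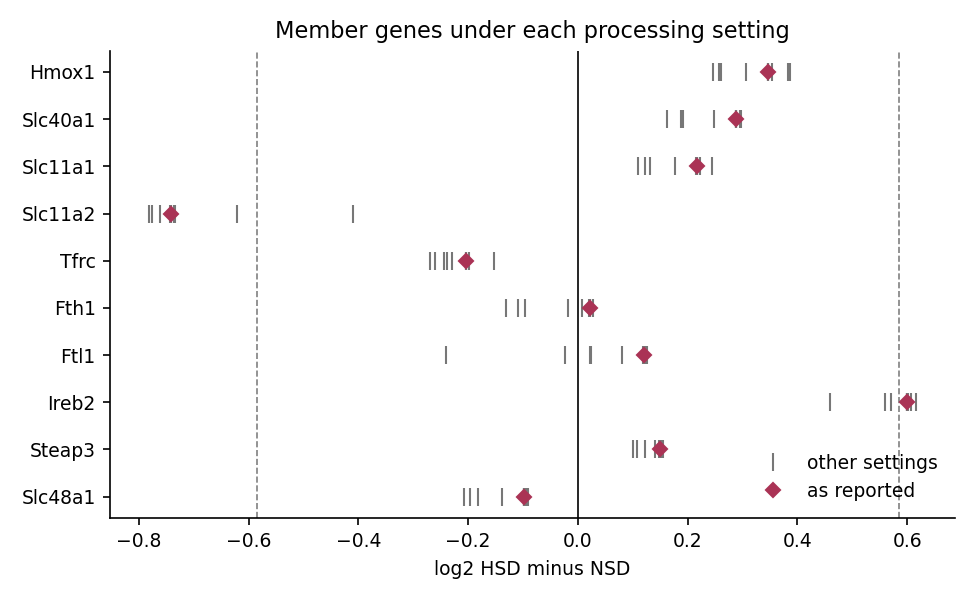
Difference of the brightest probe of each of the 10 genes, HSD minus NSD on the log2 scale, as reported (diamonds) and under 10 other processing settings (ticks), with dashed lines at 1.5-fold. Fth1 and Ftl1 changed sign between settings, Ireb2 crossed 1.5-fold, and Slc11a2 was under 1.5-fold for the median over its probes.

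NRF2 and BACH1 bind a DNA element whose core is TGANNNNGC. Nfe2l2, which encodes NRF2, had 5647 units in NSD and 5390 in HSD, a difference of 0.047, and Bach1 had 3205 and 3633 units, a difference of 0.30. The core was searched on both strands of RefSeq promoters (assembly GRCm38.p6, 250 bases before to 50 bases after a transcription start), of which 6 of the 10 genes had 11. It was found in 2 of these 11, of Slc11a1 and Steap3, and in 41.3% of all 32851 promoters of the table. Promoters of Hmox1, Slc40a1, Slc11a2 and Slc48a1 were not analysed here. Sequence outside this window was not searched, so a gene without a match, such as Fth1 or Ftl1, may hold the core elsewhere. The part before the start is shown for the promoters with a match, in the direction of transcription, with the match in capitals. That of Slc11a1 lies at chr1:74374953-74375202 on the plus strand, with the match starting at base −52. That of Steap3 lies at chr1:120258879-120259128 on the minus strand, with the match at base −151 on the opposite strand, and is 1 of several starts annotated for the gene.
Slc11a1: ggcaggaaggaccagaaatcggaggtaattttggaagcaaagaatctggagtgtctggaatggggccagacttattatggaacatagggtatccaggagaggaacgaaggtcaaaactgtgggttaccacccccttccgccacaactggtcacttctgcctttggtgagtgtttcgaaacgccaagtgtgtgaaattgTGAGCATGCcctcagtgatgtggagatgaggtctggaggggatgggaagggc
Steap3: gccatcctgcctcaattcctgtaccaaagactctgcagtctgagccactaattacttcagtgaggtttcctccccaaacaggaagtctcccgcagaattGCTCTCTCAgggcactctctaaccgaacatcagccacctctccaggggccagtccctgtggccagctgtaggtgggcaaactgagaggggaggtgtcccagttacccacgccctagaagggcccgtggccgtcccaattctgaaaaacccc
A match is a stretch of letters and no measured binding. Slc11a1 and Steap3, at 0.22 and 0.15, did not reach 1.5-fold on the arrays.

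To place the 10 genes, 56 other genes of iron and heme metabolism were listed by role. Of these, 48 were detected on 1 or both arrays, of which 6 were at least 1.5-fold higher in HSD and 6 at least 1.5-fold lower (12.5% in each direction, beside 9.85% and 10.3% of all genes). The median difference over the 48 genes was −0.015, with 24 above 0 and 24 below. The genes past 1.5-fold were spread over the roles, with 2 higher and 1 lower of 5 genes of iron and heme export, 1 higher and 2 lower of 6 genes of iron sensing and regulation, 1 higher of 10 genes of iron binding and uptake, 1 in each direction of 4 genes of hemoglobin and heme uptake, 1 in each direction of 8 mitochondrial genes, and 1 lower of 9 genes of heme synthesis. None of 3 genes of heme breakdown and none of 3 of ferritin handling reached it, among them Blvrb, a biliverdin reductase, with a difference of 0.40, and Ncoa4, the receptor that sends ferritin to the lysosome, with 0.35.

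Steap4 had the largest difference above 0 among the wider genes detected on both arrays. It encodes a metal reductase of the same family as Steap3, and its probe had 124 units in NSD and 806 in HSD, 7.05-fold higher in HSD. The difference was 2.82 and, with normexp, 2.23. Steap3 itself had a difference of 0.15.

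Fbxl5 encodes the iron-sensing part of the ubiquitin ligase that marks iron regulatory protein 2 for degradation. It had 1926 units in NSD and 4243 in HSD, 2.38-fold higher, and its difference of 1.25 lay between 1.16 and 1.31 under the other settings. RNA of Ireb2 and of Fbxl5 was thus higher on the same array, and the protein was not measured. Cp, which encodes the ferroxidase ceruloplasmin that works beside ferroportin, had 34.0 and 69.9 units, a difference of 1.15 and of 0.62 with normexp. Hpx, for the heme-binding plasma protein hemopexin, was near background with 7.22 and 14.5 units, a difference of 1.12 that shrank to 0.24 with normexp.

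Spic had the largest difference below 0 among these genes. It encodes a transcription factor that red pulp macrophages of the spleen need, and it had 241 units in NSD and 41.4 in HSD, 5.38-fold lower in HSD. Its difference was −2.43, and −1.53 with normexp. Hfe, whose product binds transferrin receptor 1 and takes part in iron sensing, had 129 and 42.6 units, a difference of −1.48, and −0.93 with normexp. Lrp1, the receptor for hemopexin with its heme, had 248 and 127 units, a difference of −0.85. Abcg2, a heme and drug exporter, had 78.2 and 44.9 units, a difference of −0.68 that was −0.37, under 1.5-fold, with normexp. Spic, Hfe and Lrp1 are used by macrophages, 7 of whose 11 markers were also lower in HSD, and the part of macrophages in these values was not tested.

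Another 4 genes of the wider set were past 1.5-fold and are named after their values were seen. Slc25a37 encodes mitoferrin 1, which brings iron into mitochondria, and had 4071 units in NSD and 7726 in HSD, a difference of 1.04, with 0.75 for its second probe. Fech, for the enzyme that inserts iron into heme, had 943 and 576 units, a difference of −0.60, and Cisd1, for an iron-sulfur protein of the outer mitochondrial membrane, had 329 and 196, a difference of −0.63. Both were under 1.5-fold with normexp, at −0.54 and −0.55. Hamp, for hepcidin, the hormone that makes cells take ferroportin off their surface, was near background with 5.10 and 8.83 units, and its difference of 0.91 was 0.16 with normexp. Slc40a1, whose product hepcidin acts on, had a difference of 0.29. Slc25a37 and Fech are strongly used by erythroid precursors, of whose 7 markers above background 1 was at least 1.5-fold lower and 0 higher, and the part of such cells in these values was not tested.

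**Figure D5:**
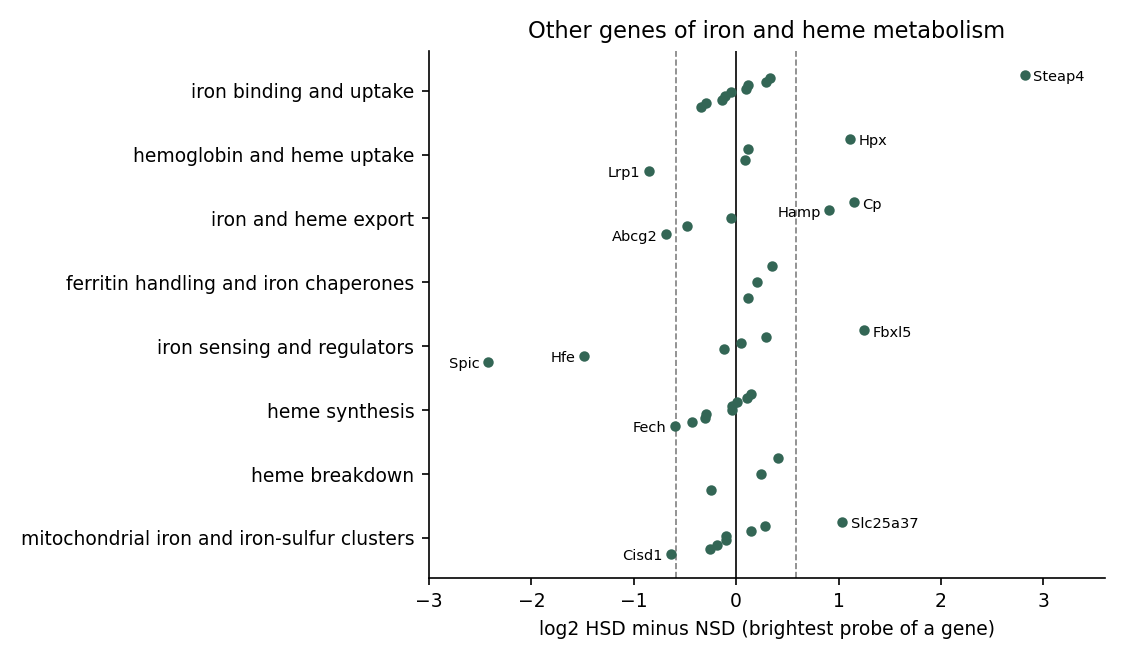
Difference of the brightest probe of each of the 48 other iron and heme genes detected on 1 or both arrays, HSD minus NSD on the scaled log2 scale, grouped by role, with dashed lines at 1.5-fold and names for the 12 genes past it, and Steap2, not well above background in HSD, drawn at its bound. Most points lie within 1.5-fold, with Steap4 at 2.82 and Spic at −2.43 farthest out.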

How the data were processed

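The authors deposited the scanner output of 1 single-colour Agilent mouse array (4 × 44k) per diet, extracted with Feature Extraction 11.0.1.1. Its processed signals are intensities from which background and spatial trends had been removed and which had not been normalized across arrays. The authors also deposited log2 values made with GeneSpring, by a method not given in the sources used here, which served as an alternative. No column of sample values was left unused (0).

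Control spots and outlier spots were left out, spots of a probe were averaged on the log2 scale, and the 75th percentile over all probes was subtracted. Probes were named by RefSeq transcript, 27223 of 39413 probes, and genes without a match, among them Cd68, Ly6c2, Ly6g, Ahsp and Hbb-b1, were not analysed here. Of several probes the probe whose mean log2 signal was highest stood for the gene. Where a probe was dim on 1 array, its fold was a lower bound, and no fold was given for probes dim on both. The error of a difference combines the software's signal errors and measures no biological spread, and precision is limited by the number of arrays.

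All 10 members were named with every probe, and of the wider lists the 4 highest and the 4 lowest by log2 difference among genes detected on both arrays. Members, lists and tests were chosen with earlier results of these data known. Counting was tested on simulated data. Alternatives were normexp on the median signals (offset 50), quantile, median and cyclic loess scaling, the 75th percentile of probes detected on both arrays, the deposited values, other filters on dim probes, outlier spots kept, a 2-fold threshold, and the median over a gene's probes. The arrays shared a slide, which therefore could not be a block. A planned comparison of member proteins was not run. Python 3.11.15, numpy 2.4.6, pandas 2.3.3, matplotlib 3.10.9, R 4.3.3 and limma 3.58.1 were used.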

Additional observations from a re-analysis of the deposited data

How the results depend on the processing

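Of the 10 genes, 8 kept the direction of their difference under all 10 other settings, and Fth1 and Ftl1 did not. The counts at the threshold were less stable. The number of the 16 probes at least 1.5-fold higher in HSD, and likewise the number of the 10 genes, was 1 as reported and 0 with normexp, with the 75th percentile of probes detected on both arrays, with cyclic loess and with a 2-fold threshold. With a 2-fold threshold the number of lower probes and the number of lower genes were 0 as well. With the median over a gene's probes, 0 genes were lower. Of the other iron and heme genes, 6 were higher and 6 lower as reported, 4 and 3 with normexp, 5 and 2 with a 2-fold threshold, and 9 and 7 with no filter on dim probes. No difference that was past 1.5-fold reversed. The scalings moved the median of all probes detected on both arrays to values between −0.0096 and 0.072. Leaving out an array was not possible with 1 array per diet, and no paired analysis was possible because the groups hold 1 array each. Normexp moved the differences of several dim probes, such as Hpx and Hamp, to under 1.5-fold, which limits what can be said of them. The arrays give no spread between mice, and most probes were measured in 1 spot.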
